A study of Mus musculus and blank sample with 768 samples.

Results

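The 40 cell cycle genes described here were taken from a list of names, and all 40 had a row among the 51734 gene symbols of both read count tables. They comprise 10 genes of the G1/S transition and DNA replication, 26 mitotic genes, the cell cycle inhibitor gene Cdkn1a, and Stmn1, Mxd3 and Fam64a. The cells came from mouse tumours, lymph nodes (LN) and blood and were sorted singly into wells by CD45, a leukocyte surface protein, CD31, an endothelial adhesion protein, and GFP. The gates were tumour macrophages (CD45+ CD31- GFP-, plate KM1), tumour CLEC (CD45- CD31+ GFP+, plates KM3 and KM4), tumour endothelial cells or EC (CD45- CD31+ GFP-, plate KM2), LN GFP+ and LN GFPlow cells (both CD45- CD31+) and LN GFP- cells (CD45- CD31+). CLEC is the name the labels give to GFP+ endothelial cells, those of lymph node and blood included, as cells of the Csf1r lineage, and LN GFPlow cells are labelled as potential CLEC. A further 27 wells held GFP+ CD45- CD31+ cells from blood. Genotype, strain, age, tumour type and the driver of the GFP label are not stated in the labels, and no label names an animal. Each gate therefore counts as 1 sample. No test between gates was possible, no p-value is given, and intervals cover counting error only.

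Of 766 wells with a cell, 592 cells were kept, with 58373 to 3123112 reads in genes. These were 81 tumour macrophages, the tumour CLEC (84 on KM3 and 85 on KM4), 84 tumour EC, 98 LN GFP+, 79 LN GFPlow, 74 LN GFP- and 7 blood cells. The 2 wells without a cell held 0 reads of the 40 genes. In the tumour the macrophage markers marked the macrophage gate. Reads of at least 3 of 11 were found in 81 of 81 tumour macrophages and in 0 tumour CLEC and 0 of 82 tumour EC at equal depth. In the lymph node at least 3 were found in 2 of 95 LN GFP+, 1 of 78 LN GFPlow and 0 of 71 LN GFP- cells. At least 1 was found in 68, 35 and 16 cells of these LN gates. At least 3 of 12 pan-endothelial markers were found in all tumour CLEC, 81 of 82 tumour EC, 88 of 95 LN GFP+, 72 of 78 LN GFPlow and 71 of 71 LN GFP- cells. At least 3 of 7 lymphatic endothelial markers were found in 2 tumour CLEC and 1 of 82 tumour EC, and in 54 of 95 LN GFP+, 44 of 78 LN GFPlow and 12 of 71 LN GFP- cells. Tumour and LN cells were on separate plates and in separate tables, so tissue and plate cannot be told apart. Tumour macrophages and tumour EC also had 1 plate each, so gate and plate cannot be told apart there.

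A cell that enters the cycle first makes the genes of DNA replication, which E2F factors switch on when cyclin-dependent kinases release them from RB. After replication, a later group is made for mitosis under the MuvB complex with MYBL2 and FOXM1, and its products drive chromosome condensation, spindle assembly and cytokinesis. Resting cells repress both groups through the DREAM complex, which binds a promoter element called the cell cycle genes homology region (CHR), often beside CCAAT boxes bound by NF-Y. In most adult vessels few endothelial cells divide, and tumour vessels are known for a larger dividing share.

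All 40 genes had reads in each of the 3 tumour gates, while most mitotic genes were near 0 in LN GFP+ and LN GFPlow cells and, in LN GFP- cells, had reads mainly in 1 cell. Levels are given as CPM, the reads of a gene per 1000000 reads summed over the cells of a gate. The median gene of the 26 mitotic ones stood at 43.01 CPM in tumour macrophages, 41.13 CPM in tumour CLEC and 50.04 CPM in tumour EC. In LN GFP+, LN GFPlow and LN GFP- cells it stood at 0.02, 0.17 and 8.73 CPM. Of the 26, 9 had 0 reads in LN GFP+ cells, 9 in LN GFPlow cells and 1 in LN GFP- cells, and 16 of the 26 had reads in at most 1 LN GFP- cell. The 10 replication genes reached further down: their median was 73.6, 56.6 and 85.7 CPM in tumour macrophages, tumour CLEC and tumour EC, and 22.5, 12.6 and 26.96 CPM in LN GFP+, LN GFPlow and LN GFP- cells. In bulk sums of this kind, fewer cycling cells and less RNA per cycling cell cannot be told apart, and counts of cells are therefore given beside the sums.

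**Figure D1:**
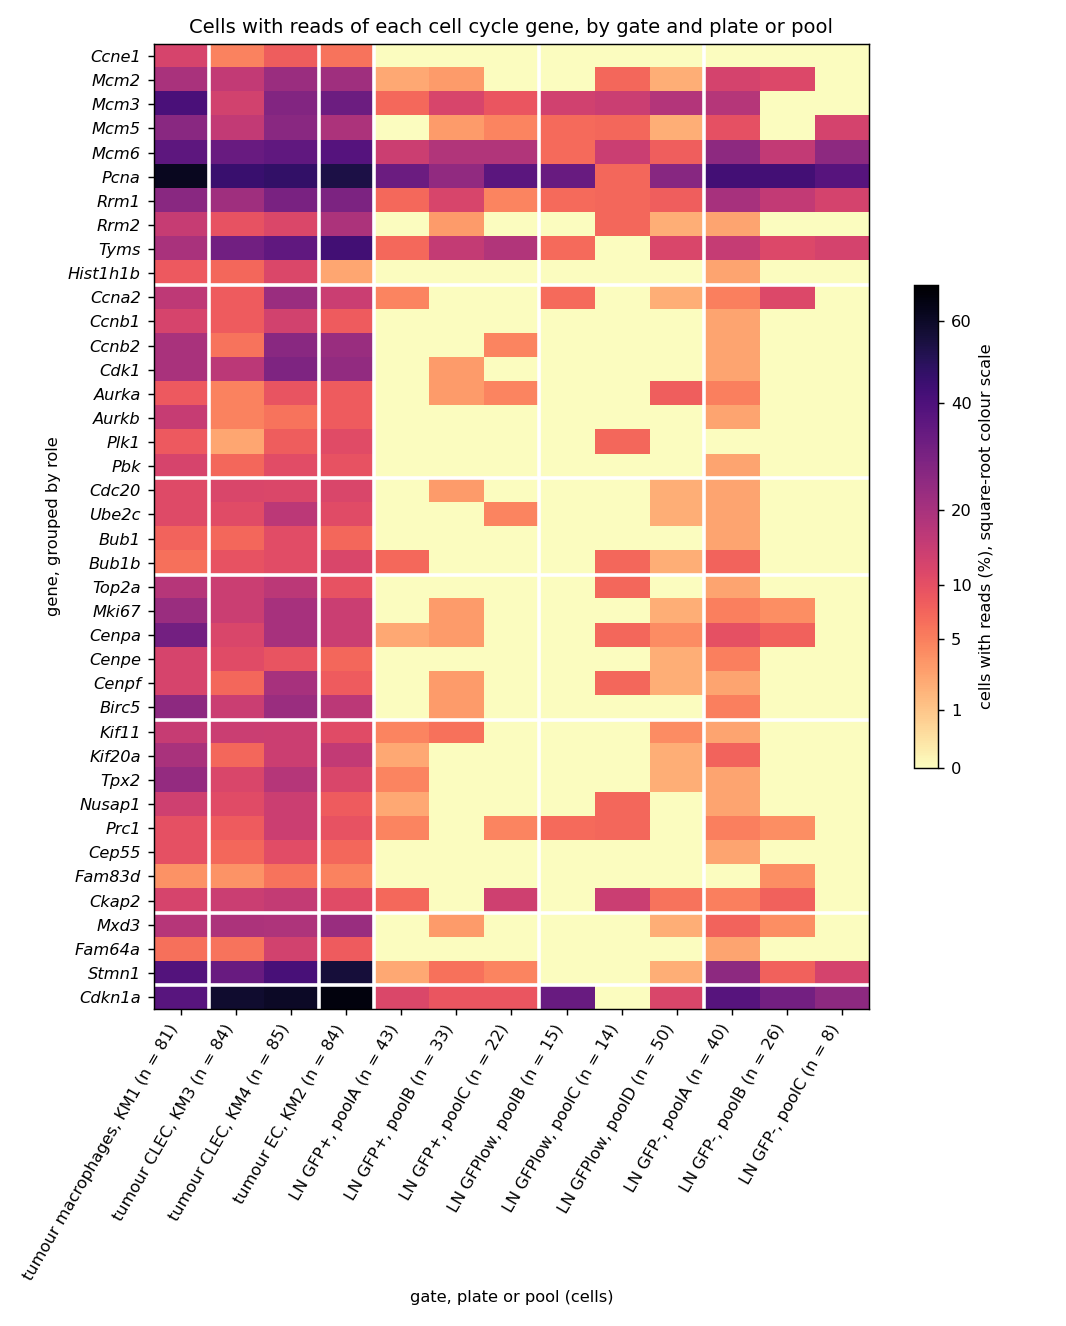
Share of cells with at least 1 read (percent, square-root colour scale, all reads) of the 40 genes (rows, grouped by role) in each gate and plate or pool (columns, with the number of cells kept). The 4 tumour plates have reads in every row, and in the LN pools colour remains mainly in the replication genes, Stmn1 and Cdkn1a, with a column of pale mitotic genes in LN GFP- cells of pool A that comes largely from 1 cell.

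Mki67 encodes Ki-67, a coat of mitotic chromosomes used as the standard marker of cycling cells. Its level was 124.1 CPM in tumour macrophages, 94.2 CPM in tumour CLEC (81.9 on KM3 and 105.6 on KM4) and 37.3 CPM in tumour EC, and 8.42, 0.89 and 36.95 CPM in LN GFP+, LN GFPlow and LN GFP- cells. The LN values rest on few cells: reads were found in 1 of 98 LN GFP+, 1 of 79 LN GFPlow and 3 of 74 LN GFP- cells, and 90.98% of the LN GFP- reads came from a single cell. In the tumour they were found in 18 of 81 macrophages, 29 CLEC (17.2%) and 12 of 84 EC. Top2a, the DNA topoisomerase that untangles replicated chromosomes, had 83.5 CPM in tumour macrophages, 93.5 CPM in tumour CLEC and 66.5 CPM in tumour EC. In LN GFP+, LN GFPlow and LN GFP- cells it had 0, 6.59 and 21.8 CPM, with reads in 0, 1 and 1 cells. The 0 of 98 LN GFP+ cells allow a share of up to 3.06%. Birc5, or survivin, a subunit of the chromosomal passenger complex, had 111.3, 66.9 and 78.99 CPM in tumour macrophages, tumour CLEC and tumour EC, and 0.01, 0 and 9.21 CPM in LN GFP+, LN GFPlow and LN GFP- cells.

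Among the mitotic cyclins and kinases, Cdk1, the kinase that starts mitosis, had 76.7 CPM in tumour macrophages, 101.04 CPM in tumour CLEC and 94.98 CPM in tumour EC. It had 1 read in LN GFP+ cells, 0 reads in LN GFPlow cells and 637 reads in LN GFP- cells, all 637 in 1 cell. Its partner Ccnb1, cyclin B1, had 70.8, 63.5 and 56.2 CPM in tumour macrophages, tumour CLEC and tumour EC, and 0, 0 and 0.27 CPM in LN GFP+, LN GFPlow and LN GFP- cells. The tumour gates lay close together for both genes, and no LN gate came near them. The other B-type cyclin, Ccnb2, had 101.3, 56.6 and 97.9 CPM in tumour macrophages, tumour CLEC and tumour EC, and 0.03, 0 and 10.1 CPM in LN GFP+, LN GFPlow and LN GFP- cells. Ccna2, cyclin A2, which acts from S phase into mitosis, had 66.8, 53.2 and 58.9 CPM in the same tumour gates, and 3.59, 1.38 and 18.4 CPM in the same LN gates. Ube2c, the ubiquitin-conjugating enzyme with which the anaphase-promoting complex marks cyclin B for destruction, had 47.5, 57.1 and 76.9 CPM in tumour macrophages, tumour CLEC and tumour EC, and 0.01, 1.11 and 7.68 CPM in LN GFP+, LN GFPlow and LN GFP- cells.

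The remaining mitotic genes were higher in the tumour gates than in LN GFP+ and LN GFPlow cells, while LN GFP- cells reached the lowest tumour levels for some. The kinase genes Aurka, Aurkb, Plk1 and Pbk and the spindle checkpoint and anaphase genes Bub1, Bub1b and Cdc20 ranged from 7.29 CPM (Bub1 in tumour EC) to 80.5 CPM (Cdc20 in tumour EC) in the tumour gates. In LN GFP+ and LN GFPlow cells none of these 7 passed 6.15 CPM (Aurka in LN GFPlow cells), while in LN GFP- cells they ranged from 0 (Plk1) to 19.7 CPM (Cdc20). The centromere genes Cenpa, Cenpe and Cenpf ranged from 11.9 CPM (Cenpf in tumour macrophages) to 88.96 CPM (Cenpa in tumour macrophages). They had at most 0.03 CPM in LN GFP+ cells, at most 5.71 CPM (Cenpa) in LN GFPlow cells, and 22.4 (Cenpa), 8.68 (Cenpe) and 12.02 CPM (Cenpf) in LN GFP- cells, so Cenpf stood at a like level in tumour macrophages and LN GFP- cells. The spindle and cytokinesis genes were the motor genes Kif11 and Kif20a with Tpx2, Nusap1, Prc1, Cep55, Fam83d and Ckap2. They ranged from 7.32 CPM (Fam83d in tumour macrophages) to 61.9 CPM (Ckap2 in tumour EC and Tpx2 in tumour macrophages) in the tumour gates, and reached at most 4.85 CPM (Tpx2) in LN GFP+ cells and 3.05 CPM (Ckap2) in LN GFPlow cells. In LN GFP- cells they reached 24.9 CPM (Prc1), and Fam83d had 7.32 CPM in tumour macrophages, 10.4 CPM in tumour CLEC and 24.2 CPM in tumour EC, against 10.9 CPM in LN GFP- cells, all in 1 cell. Kif20a shares bases with Cdc23, Ccna2 with Exosc9, Cdc20 with Elovl1, Nusap1 with Oip5, Prc1 with Rccd1, Ube2c with Tnnc2 and Mxd3 with Prelid1 on the opposite strand in GENCODE vM21. Whether the counting used strand is not given in the sources used here, so reads of such pairs cannot be told apart. Ccnb1, Ccnb2, Pcna and Tyms also have annotated processed pseudogenes that could share reads with them.

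Replication genes were present in both tissues. Pcna, the sliding clamp of DNA polymerase, had 245.5, 143.3 and 167.2 CPM in tumour macrophages, tumour CLEC and tumour EC, and 82.98, 57.6 and 100.6 CPM in LN GFP+, LN GFPlow and LN GFP- cells. Reads of it were found in 50 tumour macrophages (61.7%), 78 tumour CLEC (46.2%) and 45 tumour EC (53.6%), and in 30 of 98, 19 of 79 and 31 of 74 cells of the LN gates. Mcm2, a subunit of the replicative helicase, had 54.05, 52.99 and 51.7 CPM in tumour macrophages, tumour CLEC and tumour EC, and 10.4, 1.74 and 29.5 CPM in LN GFP+, LN GFPlow and LN GFP- cells. Its partner subunit gene Mcm6 differed less between tissues, at 112.96, 144.03 and 139.6 CPM in the tumour gates and 84.4, 13.9 and 117.6 CPM in the LN gates. Tyms, thymidylate synthase, had 45.6, 102.3 and 83.1 CPM in tumour macrophages, tumour CLEC and tumour EC, and 35.8, 38.2 and 27.5 CPM in LN GFP+, LN GFPlow and LN GFP- cells. The genes that followed the mitotic ones were Rrm2 and Ccne1. Rrm2, the S-phase subunit of ribonucleotide reductase, had 117.98, 60.3 and 57.8 CPM in the tumour gates, and 0.01, 1.80 and 26.4 CPM in the LN gates. Ccne1, cyclin E1, which starts replication, had 31.1, 12.4 and 8.47 CPM in the tumour gates and 0 reads in all 3 LN gates. The helicase subunit genes Mcm3 and Mcm5 and the other reductase subunit gene, Rrm1, ranged from 49.3 CPM (Mcm5 in tumour CLEC) to 105.5 CPM (Mcm3 in tumour macrophages) in the tumour gates, and from 11.3 CPM (Mcm5 in LN GFPlow cells) to 59.8 CPM (Rrm1 in LN GFP- cells) in the LN gates. The Ccne1 zeros are 0 of 98, 0 of 79 and 0 of 74 cells, which allow shares of up to 3.06%, 3.80% and 4.05%.

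Stmn1 encodes stathmin, which takes microtubules apart. It had 218.3, 188.1 and 214.01 CPM in tumour macrophages, tumour CLEC and tumour EC, and 11.4, 0.12 and 68.3 CPM in LN GFP+, LN GFPlow and LN GFP- cells. Reads were found in 31 tumour macrophages (38.3%), 63 tumour CLEC (37.3%) and 47 tumour EC (55.95%), and in 4 of 98, 1 of 79 and 13 of 74 cells of the LN gates. It was thus the commonest of the non-replication genes in LN GFP- cells after Cdkn1a, and nearly absent from the other LN gates. Mxd3, which encodes a MAX-binding repressor, had 11.4, 16.9 and 15.7 CPM in the tumour gates and 0.01, 0.01 and 3.88 CPM in the LN gates, and Fam64a had 9.83, 24.5 and 29.2 CPM in the tumour gates and 0, 0 and 8.03 CPM in the LN gates. Hist1h1b, a linker histone gene, ranged from 3.01 to 11.7 CPM in the tumour gates and had reads in 1 LN cell. Replication histone mRNAs carry no poly(A) tail, which the cDNA priming of SMART-seq2 needs, so its level here is not a measure of its mRNA.

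The mitotic genes came as a set within single cells. Each cell was thinned to 100000 reads so that depth was equal, which left 581 cells, 574 of them in the 6 gates of tumours and lymph nodes, and the number of the 26 mitotic genes with a read was counted. In tumour CLEC, with 82 cells of KM3 and 85 of KM4, 86 cells had none of the 26, 31 had 1, and the rest were spread up to 24. In tumour macrophages 28 of 81 cells had none and the highest had all 26. In tumour EC 35 of 82 cells had none and 2 cells had all 26. A cell with at least 7 of the 26 is called here a cell with the mitotic programme. This is a range on a scale and not a cell type: 3 tumour macrophages, 13 tumour CLEC and 7 tumour EC had 4 to 9 of the genes and lay near the limit. In the lymph node nothing lay near it. The highest LN GFP+ cell had 2 of the 26 and the highest LN GFPlow cell had 3. Of the LN GFP- cells, 70 of 71 had 3 or fewer and the remaining 1, from pool A, had 23.

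**Figure D2:**
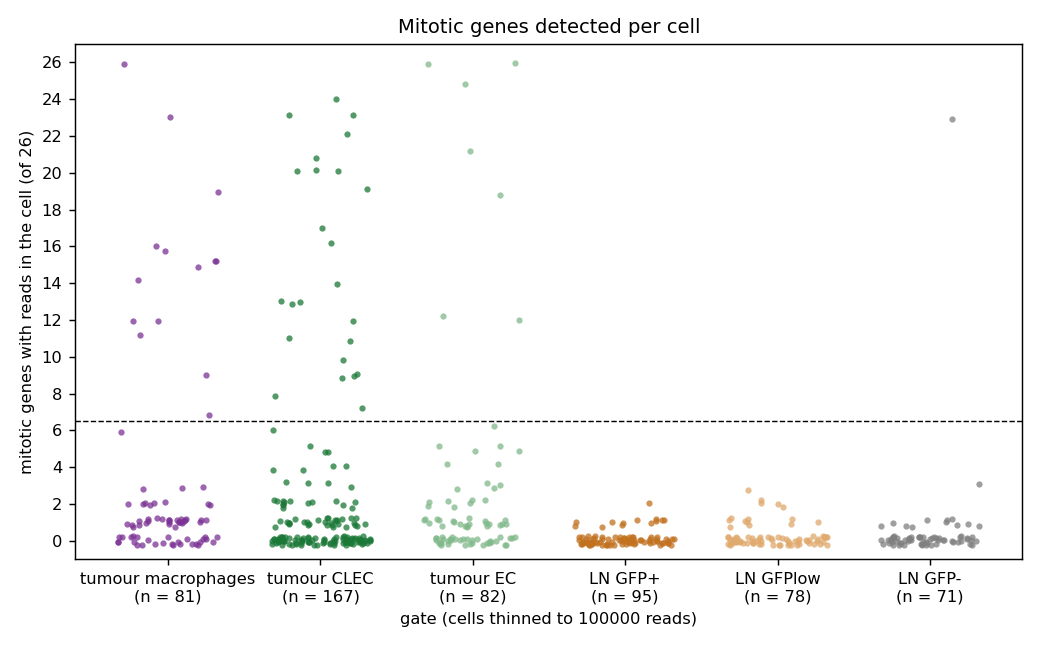
Number of the 26 mitotic genes with reads (vertical axis) in each cell thinned to 100000 reads (points, spread sideways within a gate). The dashed line separates cells with 7 or more genes, of which there were 14 tumour macrophages, 24 tumour CLEC, 7 tumour EC and 1 LN GFP- cell.

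Several pairs of genes whose products act together were often found in the same cells. In tumour CLEC, 12 of 17 cells with Ccnb1 reads also had Cdk1 reads, 18 of 22 cells with Top2a reads also had Mki67 reads, and 8 of 8 cells with Aurkb reads also had Birc5 reads. In tumour macrophages these were 7 of 10, 11 of 13 and 9 of 11 cells, and in tumour EC 6 of 7, 4 of 6 and 5 of 6 cells. Cdk1 was the less selective partner, since 37 tumour CLEC had its reads and 18 of these lacked the mitotic programme. In tumour EC, 13 of 19 cells with Cdk1 reads and 10 of 17 with Ccnb2 reads lacked it too. Other pairs shared fewer cells. Of 12 tumour CLEC with Bub1 reads and 15 with Bub1b reads, the genes of 2 checkpoint partners, 6 had both, and of 13 tumour macrophages with Kif20a reads and 7 with Prc1 reads 4 had both. Ccne1 and Plk1, the kinase of late G2 and mitosis, shared 2 tumour macrophages, where 10 and 7 cells had their reads. They shared 1 of 10 and 8 tumour CLEC and 1 of 4 and 9 tumour EC. Reads of Top2a were found in 6 of 10 tumour macrophages, 6 of 10 tumour CLEC and 0 of 4 tumour EC with Ccne1 reads. Among the cells with the mitotic programme, 5 of 14 tumour macrophages, 8 of 24 tumour CLEC and 1 of 7 tumour EC had reads of Ccnb1, Plk1 or Aurka with none of Ccne1 or Rrm2, while 2, 5 and 0 cells had the reverse. The remaining cells had reads of both groups (7, 8 and 6 cells) or of neither (0, 3 and 0 cells).

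The promoters of the mitotic genes share letters that those of most genes lack, and they are shown because these genes were found together. RefSeq promoters on GRCm38.p6, from 250 bases before to 50 bases after the start, were matched for 33 of the 40 genes, 21 of them mitotic and 10 of replication. Both strands were searched for CCAAT, for the CHR words TTTGAA and TTCGAA, and for 4 E2F words, TTTGGCGC, TTTCGCGC, TTTCCCGC and TTTGCCGC. No match of one motif shared a base with a match of a different motif, while matches of the same motif could overlap. A CHR word was found in 17 of 21 mitotic promoters (80.95%), in 2 of 10 replication promoters and in 19.2% of all 32851 promoters in the table. CCAAT was found in 18 of 21 mitotic promoters (85.7%), in 8 of 10 replication promoters and in 37.4% of all promoters. A CHR word with 2 or more CCAAT boxes was found in 11 of 21 mitotic promoters (52.4%), in 1 of 10 replication promoters and in 2.31% of all. An E2F word was found in 1 of 21 mitotic and 3 of 10 replication promoters, and in 2.26% of all. A match is a description of the letters, not of a site in use. The promoters of Mki67 (chr7:135716330-135716629), Top2a (chr11:99024140-99024439), Ccnb2 (chr9:70421505-70421804), Cdk1 (chr10:69352863-69353162) and the replication gene Mcm6 (chr1:128359656-128359955), all on the minus strand, read as follows 5′ to 3′, with the motif matches in capitals.
Mki67: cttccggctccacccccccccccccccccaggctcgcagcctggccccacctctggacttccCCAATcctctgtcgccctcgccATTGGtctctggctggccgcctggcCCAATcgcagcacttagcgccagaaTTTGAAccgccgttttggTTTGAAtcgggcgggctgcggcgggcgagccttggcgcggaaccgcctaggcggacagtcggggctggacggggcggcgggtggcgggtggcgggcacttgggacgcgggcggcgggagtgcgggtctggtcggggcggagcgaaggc
Top2a: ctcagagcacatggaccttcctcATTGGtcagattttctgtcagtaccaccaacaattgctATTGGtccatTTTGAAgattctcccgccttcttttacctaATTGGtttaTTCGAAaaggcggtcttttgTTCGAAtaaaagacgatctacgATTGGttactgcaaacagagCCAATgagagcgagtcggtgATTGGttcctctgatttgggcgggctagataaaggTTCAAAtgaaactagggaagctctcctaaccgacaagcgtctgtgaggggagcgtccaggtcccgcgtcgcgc
Ccnb2: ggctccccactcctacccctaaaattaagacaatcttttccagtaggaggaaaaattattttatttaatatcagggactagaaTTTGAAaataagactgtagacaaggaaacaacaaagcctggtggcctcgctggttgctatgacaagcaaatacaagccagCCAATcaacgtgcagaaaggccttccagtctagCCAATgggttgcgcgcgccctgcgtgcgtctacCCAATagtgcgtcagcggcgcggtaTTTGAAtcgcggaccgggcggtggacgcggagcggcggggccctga
Cdk1: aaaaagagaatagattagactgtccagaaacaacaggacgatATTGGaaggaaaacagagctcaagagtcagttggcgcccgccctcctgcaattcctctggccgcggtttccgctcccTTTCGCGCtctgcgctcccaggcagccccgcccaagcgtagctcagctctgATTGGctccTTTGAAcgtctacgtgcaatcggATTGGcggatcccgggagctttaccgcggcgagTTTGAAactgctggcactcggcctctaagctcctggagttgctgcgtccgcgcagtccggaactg
Mcm6: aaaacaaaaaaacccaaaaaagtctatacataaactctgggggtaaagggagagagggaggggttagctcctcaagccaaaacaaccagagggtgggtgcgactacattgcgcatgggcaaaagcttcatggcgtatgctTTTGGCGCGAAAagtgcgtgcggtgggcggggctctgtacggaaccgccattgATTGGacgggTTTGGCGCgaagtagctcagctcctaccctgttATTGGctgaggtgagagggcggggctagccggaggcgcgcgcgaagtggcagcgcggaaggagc
Mki67 has 3 CCAAT boxes and 2 CHR words, Top2a has 6 and 4, Ccnb2 has 3 and 2, and Cdk1 has 3 and 2 with 1 E2F word. Mcm6 has 2 CCAAT boxes, 3 E2F words and no CHR word in this window, and 2 of its E2F words overlap in 1 stretch of capitals. Reads of both Mcm6 and Cdk1 were also found in cells without the mitotic programme. Whether such reads go with the presence or lack of a CHR word was not tested.

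The share of cells with the mitotic programme was 14 of 81 tumour macrophages (17.3%, exact Clopper-Pearson 95% interval 9.78% to 27.3%). It was 24 tumour CLEC (14.4%, 9.43% to 20.6%), with 9 of 82 cells on KM3 and 15 of 85 on KM4, and 7 of 82 tumour EC (8.54%, 3.50% to 16.8%). One of the 7 tumour EC had 0 CPM over the 12 pan-endothelial markers, and without cells that had fewer than 3 of them the share was 6 of 81 (7.41%). With a limit of 5 genes in place of 7 the shares were 18.5% of tumour macrophages, 16.8% of tumour CLEC and 14.6% of tumour EC. In the lymph node it was 0 of 95 LN GFP+ cells, which allows up to 3.16%, 0 of 78 LN GFPlow cells, which allows up to 3.85%, and 1 of 71 LN GFP- cells (1.41%, 0.04% to 7.60%). The intervals of the 3 tumour gates overlapped one another and lay above the 3 LN shares. That of tumour EC overlapped the exact intervals of all 3 LN gates, which reached 3.81% in LN GFP+, 4.62% in LN GFPlow and 7.60% in LN GFP- cells, while those of tumour macrophages and tumour CLEC lay above them. Each gate is 1 sample, the cells are not replicates of it, and tissue and plate cannot be told apart. Neither overlap of these intervals nor its lack is therefore a test between gates or tissues. The cells with the programme were also more deeply sequenced and held more genes. Their median was 1284050 reads and 4206 genes in tumour macrophages, against 820435 reads and 3184 genes in the other tumour macrophages. In tumour CLEC it was 1005600 reads and 3912 genes, against 803891 reads and 2965 genes, and in tumour EC 1068330 reads and 4834 genes, against 801131 reads and 3701 genes. The shares above are at equal depth, and with all reads they were 17.3%, 14.8% and 9.52% in tumour macrophages, tumour CLEC and tumour EC, and 0%, 0% and 1.35% in LN GFP+, LN GFPlow and LN GFP- cells.

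Phase calls separated the tissues less than the mitotic programme did. S and G2/M scores were computed from 43 and 54 genes, 7 and 18 of which are among the 40, and a cell was called by the higher score above 0. Of tumour macrophages 18 of 81 were called S (22.2%) and 14 of 81 G2/M (17.3%). Of tumour CLEC 23 were called S (13.8%) and 26 G2/M (15.6%). KM3 held 14 S and 10 G2/M cells of 82, and KM4 held 9 and 16 of 85. Of tumour EC 18 of 82 were called S (21.95%) and 11 of 82 G2/M (13.4%). In the lymph node the S calls were 11 of 95 LN GFP+ (11.6%), 2 of 78 LN GFPlow (2.56%) and 4 of 71 LN GFP- cells (5.63%), and the G2/M calls were 2 (2.11%), 4 (5.13%) and 3 cells (4.23%).

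The calls do not by themselves show cycling. All 11 LN GFP+ cells called S had none of the 26 mitotic genes, as had both S-called LN GFPlow cells and 3 of 4 S-called LN GFP- cells, against 3 of 18 tumour macrophages, 6 of 23 tumour CLEC and 2 of 18 tumour EC. Scores lay within 0.1 of the limit in 15, 14 and 14 cells of LN GFP+, LN GFPlow and LN GFP-, and in 12, 18 and 5 cells of tumour macrophages, tumour CLEC and tumour EC. Without thinning, G2/M calls were 12.3%, 12.4% and 7.14% in the tumour gates and 0%, 0% and 2.70% in the LN gates, and S calls were 25.9%, 15.4% and 23.8% in the tumour gates and 11.2%, 2.53% and 6.76% in the LN gates. Reads of Mki67 or Top2a, which use no score, were found in 19 of 81 tumour macrophages (23.5%), 31 tumour CLEC (18.6%) and 11 of 82 tumour EC (13.4%). They were found in 1 of 95 LN GFP+ (1.05%), 2 of 78 LN GFPlow (2.56%) and 2 of 71 LN GFP- cells (2.82%). With all reads these shares were 25.9%, 21.3% and 17.9% in the tumour gates and 1.02%, 2.53% and 4.05% in the LN gates.

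**Figure D3:**
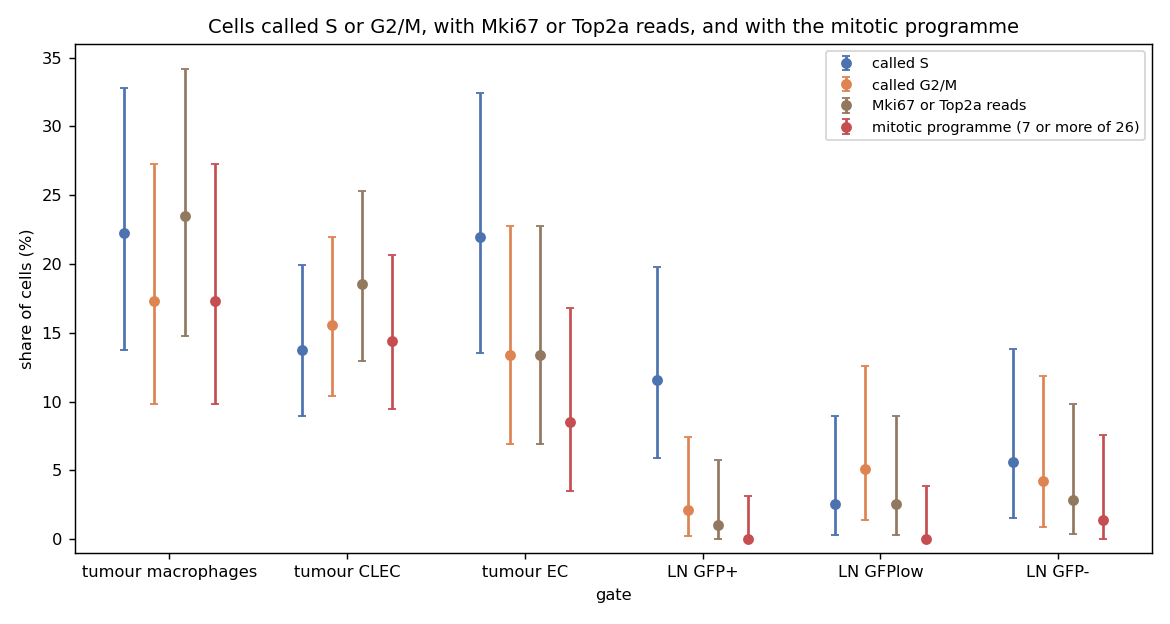
Share of cells (percent) called S, called G2/M, with Mki67 or Top2a reads and with the mitotic programme, by gate, at 100000 reads per cell. Points are shares and bars exact 95% binomial intervals, or for a share of 0 the limit that 3 cells would give; the mitotic programme stood at 17.3%, 14.4% and 8.54% in the tumour gates and at 0%, 0% and 1.41% in the LN gates, while S calls reached 11.6% in LN GFP+ cells.

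The genes that did not define the mitotic programme also stood apart in its cells. Stmn1 reads were found in 14 of 14 tumour macrophages, 24 of 24 tumour CLEC and 7 of 7 tumour EC with the programme, against 25.4%, 23.1% and 49.3% of the other cells. Rrm2 was found in 9 of 14, 13 of 24 and 6 of 7 cells with the programme, against 2.99%, 2.80% and 10.7% of the other cells. Tyms was found in 10 of 14, 20 of 24 and 7 of 7, against 7.46%, 22.4% and 37.3%. Over the 10 replication genes, the median share of cells with reads was 67.9%, 52.1% and 64.3% in cells with the programme and 13.4%, 12.9% and 18.0% in the other cells of tumour macrophages, tumour CLEC and tumour EC. The clamp gene and a helicase gene were also common outside it. Pcna reads were found in 55.2% of tumour macrophages, 37.1% of tumour CLEC and 54.7% of tumour EC without the programme, and Mcm6 reads in 29.9% of tumour macrophages, 28.7% of tumour CLEC and 24 of 75 tumour EC. In the 1 LN GFP- cell with the programme, 7 of the 10 replication genes had reads.

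**Figure D4:**
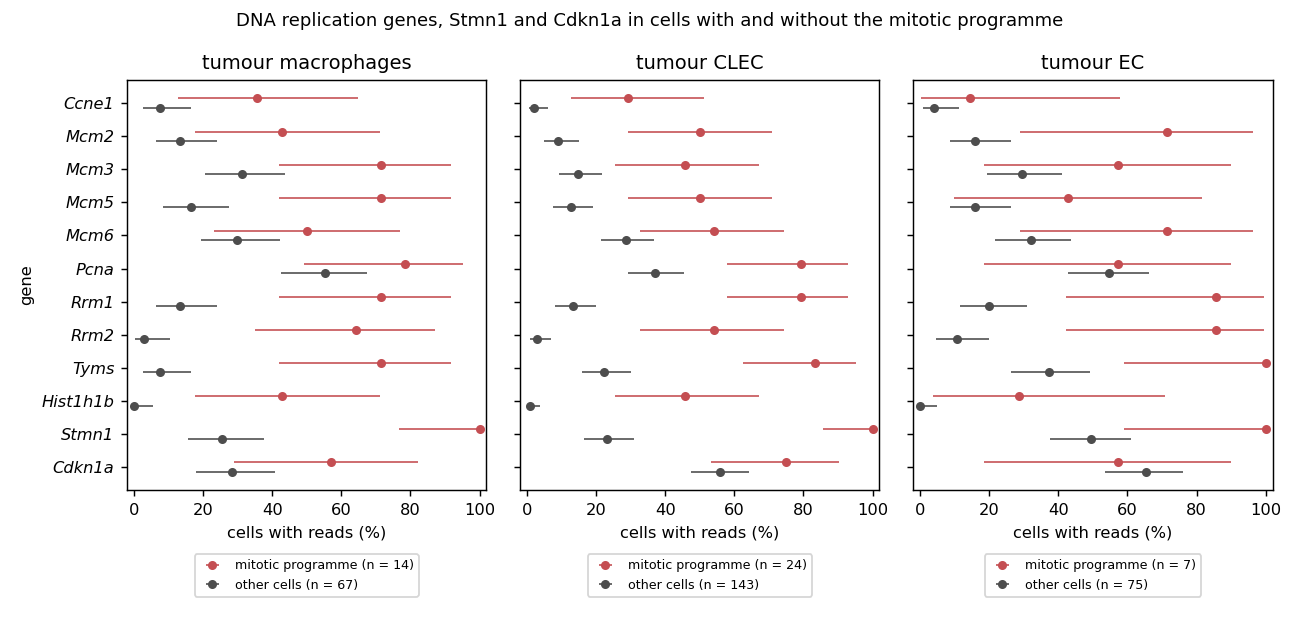
Share of cells with reads (percent, horizontal axis) of the 10 replication genes, Stmn1 and Cdkn1a in cells with the mitotic programme (red) and in the other cells (grey) of each tumour gate, at 100000 reads per cell, with exact 95% binomial intervals. Rrm2, Tyms and Stmn1 are far apart in tumour CLEC (13 of 24 cells against 2.80% for Rrm2), and Cdkn1a less so (18 of 24 cells against 55.9%).

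Cdkn1a encodes p21, which inhibits cyclin-dependent kinases and is a target of p53. It was common in the tumour gates and in LN GFP- cells, with or without the mitotic programme. Its level was 91.3 CPM in tumour macrophages, 201.5 CPM in tumour CLEC (229.9 on KM3 and 174.9 on KM4) and 187.2 CPM in tumour EC. In the lymph node it was 18.5 CPM in LN GFP+ cells, with at most 28.2 CPM in a pool, 21.8 CPM in LN GFPlow cells, and 123.7 CPM in LN GFP- cells, with at least 60.2 CPM in a pool. The 3 LN GFP+ pools thus lay below the 3 LN GFP- pools. Reads were found in 37.04% of tumour macrophages, 59.2% of tumour CLEC and 66.7% of tumour EC, and in 10 of 98, 11 of 79 and 25 of 74 cells of LN GFP+, LN GFPlow and LN GFP-. In cells with the mitotic programme it had 150.2, 213.998 and 173.5 CPM, against 74.9, 199.2 and 189.3 CPM in the other cells of tumour macrophages, tumour CLEC and tumour EC.

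Ratios between gates were taken as log2 of (CPM + 1) over (CPM + 1), and a gene was counted as higher or lower at 2-fold or more. A gene counted as measured where a gate reached 1 CPM and 5% or more of its cells held reads. Where cells were left out, these limits were applied to the cells that remained, so a gene could leave the count while its ratio stayed. Medians of the 40 used no such limits. The first comparison asks whether GFP+ and GFP- endothelial cells of the tumour differ in these genes, and most did not reach 2-fold. Tumour CLEC had higher levels of 4 of the 39 genes measured there, where 6.95% of all measured genes were higher, and lower levels of 3, where 8.25% were lower. Both counts are close to those shares of 39 genes, and with TMM-adjusted totals they were 4 and 1. The higher ones were Cenpf (50.7 CPM in tumour CLEC and 15.1 CPM in tumour EC, log2 1.68), Mki67 (log2 1.31), Bub1 (log2 1.30) and Hist1h1b (log2 1.37). The lower ones were Aurkb (13.1 CPM in tumour CLEC and 30.2 CPM in tumour EC, log2 -1.15), Ckap2 (log2 -1.12) and Bub1b (log2 -1.04). The median over the 40 genes was -0.20, beside -0.12 over all measured genes. On KM3 and KM4 taken alone, the ratio of Mki67 was 1.11 and 1.48, that of Cenpf 2.08 and 1.16, and that of Aurkb -1.31 and -1.02. Each of these ratios rests on few cells: 37.8% of the Mki67 reads of tumour EC came from 1 cell. With the cells of the mitotic programme left out, Bub1b, Cenpf and Ckap2 changed sign (0.52, -1.16 and 1.5006), and 1 gene was higher and 7 were lower. Over the cells without it that held 100000 reads or more, 7.43% of all measured genes were higher and 9.98% lower. How many of the 40 were still measured is not given here, so the counts of 1 and 7 cannot be read against those shares.

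Outside the mitotic programme some replication genes were lower in tumour CLEC than in tumour EC. Over those cells 5 of 10 replication genes were at least 2-fold lower in tumour CLEC and 0 were higher, with a median of -0.80, where 9.98% of all measured genes were lower and 7.43% higher. These were Rrm2 (2.4 CPM in tumour CLEC and 24.6 CPM in tumour EC), Ccne1 (0.8 and 7.5 CPM), Mcm5 (30.8 and 84.6 CPM), Mcm3 (36.5 and 83.9 CPM) and Pcna (75.2 and 160.3 CPM). The other 5 lay between -0.52 (Rrm1) and 0.72 (Hist1h1b). The 10 genes were counted without the limits for a measured gene, unlike the shares beside them. Ccne1 had reads in 2.10% of these tumour CLEC and 4% of these tumour EC at equal depth. Hist1h1b had 0.65 CPM in tumour CLEC and 0 CPM in tumour EC. Tumour EC came from 1 plate, and the part of the plate in these lower levels was not tested.

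Tumour macrophages set against tumour EC gave 5 higher genes of 39 measured, where 19.3% of all measured genes were higher, and 3 lower, where 27.5% were. Both counts fall below those shares. The higher ones were Ccne1 (31.1 CPM in tumour macrophages and 8.47 CPM in tumour EC, log2 1.76), Mki67 (log2 1.71), Bub1 (log2 1.19), Aurkb (log2 1.14) and Rrm2 (log2 1.02). The lower ones were Ckap2 (18.4 CPM in tumour macrophages and 61.9 CPM in tumour EC, log2 -1.70), Fam64a (log2 -1.48) and Cdkn1a (log2 -1.03). The median of the 40 was -0.13, beside -0.21 over all measured genes, and it was 0.04 beside -0.04 with TMM-adjusted totals. With the mean of per-cell CPM the counts were 1 higher and 3 lower. Ckap2, Mki67 and Rrm2 changed sign without the cells of the mitotic programme (1.66, -0.037 and -1.37). Outside the programme 3 of 10 replication genes were lower in tumour macrophages and 0 higher, counted without the limits for a measured gene. Of all measured genes 30.5% were lower and 19.3% higher, so the count is near that share. The 3 were Tyms (7.88 CPM in tumour macrophages and 63.6 CPM in tumour EC), Rrm2 (8.87 and 24.6 CPM) and Mcm5 (32.005 and 84.6 CPM).

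Between tissues the genes differed far more. In tumour CLEC against LN GFP+ cells, 35 of 39 measured genes were higher and 0 were lower, where 23.8% of all measured genes were higher and 23.4% lower. The median of the 40 was 3.95, beside 0.03 over all measured genes. Without a pseudocount, and with the 12 genes at 0 in LN GFP+ cells put at a floor of 3 reads over the gate, it was 8.58. Mki67 had 94.2 CPM in tumour CLEC and 8.42 CPM in LN GFP+ cells (log2 3.34), and Stmn1 188.1 and 11.4 CPM (log2 3.93). At that floor Top2a, with 0 reads in LN GFP+ cells, was 2963-fold higher in tumour CLEC, and Ccnb1 2013-fold. Cdk1, with 1 read in LN GFP+ cells, had a ratio of 9609 with a counting interval from 1724 to 379564. These values cover the counting of reads only, not the spread between cells. Of the mitotic genes with reads in LN GFP+ cells, the median gene had 100% of them in 1 cell. The values are therefore not bounds on the ratio between the gates. The 4 genes under 2-fold were Mcm3 (0.44), Mcm6 (0.76), Pcna (0.78) and Rrm1 (0.95), all of DNA replication. Across the 6 pairs of 1 tumour CLEC plate and 1 LN GFP+ pool, 34 to 37 of the 39 genes were higher and at most 1 was lower. Without the cells of the mitotic programme 8 genes remained measured and at least 2-fold higher. The median of all 40, measured or not, was 1.01, while Mki67 (-0.098) and Ccna2 (-0.20) changed sign. The fall from 35 to 8 thus includes genes that left the count as unmeasured while still 2-fold higher. How many of the 40 were still measured is not given here, so the 8 cannot be read against a share of all measured genes. Over the cells without the programme 22.4% of all measured genes were higher and 24.4% lower. Of the 10 replication genes, counted without the limits for a measured gene, 3 were higher, near that share, and 0 were lower. The 3 were Rrm2 (1.76), with reads in 2.80% of these tumour CLEC, Mcm5 (1.35) and Mcm2 (1.34).

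In tumour EC against LN GFP- cells, 31 of 38 measured genes were higher and 0 were lower, where 25.5% of all measured genes were higher and 20.9% lower. The median of the 40 was 1.82, beside 0.14 over all measured genes. It was 1.92 without a pseudocount and with the 2 genes at 0 in LN GFP- cells at the floor of 3 reads. Ccnb1 had 56.2 CPM in tumour EC and 0.27 CPM in LN GFP- cells (log2 5.49), Tpx2 50.2 and 1.38 CPM (log2 4.43), and Ube2c 76.9 and 7.68 CPM (log2 3.17). Plk1, with 0 reads in LN GFP- cells, was 656-fold higher in tumour EC at that floor, which covers the counting of reads only. The 7 genes under 2-fold were Mki67 (0.01, or -0.10 with TMM-adjusted totals), Cenpf (0.31), Mcm6 (0.25), Mcm2 (0.79), Pcna (0.73), Rrm1 (0.60) and Cdkn1a (0.59). The LN GFP- levels of mitotic genes came largely from the single cell of pool A, and without it the median of the 40 was 4.55. Against pools A, B and C taken alone, 21, 34 and 36 of the 38 genes were higher. Without any cell of the mitotic programme 13 genes remained measured and higher, where 25.4% of all measured genes were higher and 21.1% lower. How many of the 40 were still measured is not given here, so the 13 cannot be read against those shares. The median of all 40, measured or not, was then 1.68, so some genes left the count as unmeasured while still 2-fold higher. Of the 10 replication genes, counted without the limits for a measured gene, 5 were then higher and 0 were lower. The 5 were Rrm2 (4.68), Ccne1 (3.10), Mcm3 (2.45), Mcm5 (1.67) and Tyms (1.16). Ccne1 had reads in 4% of these tumour EC at equal depth.

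**Figure D5:**
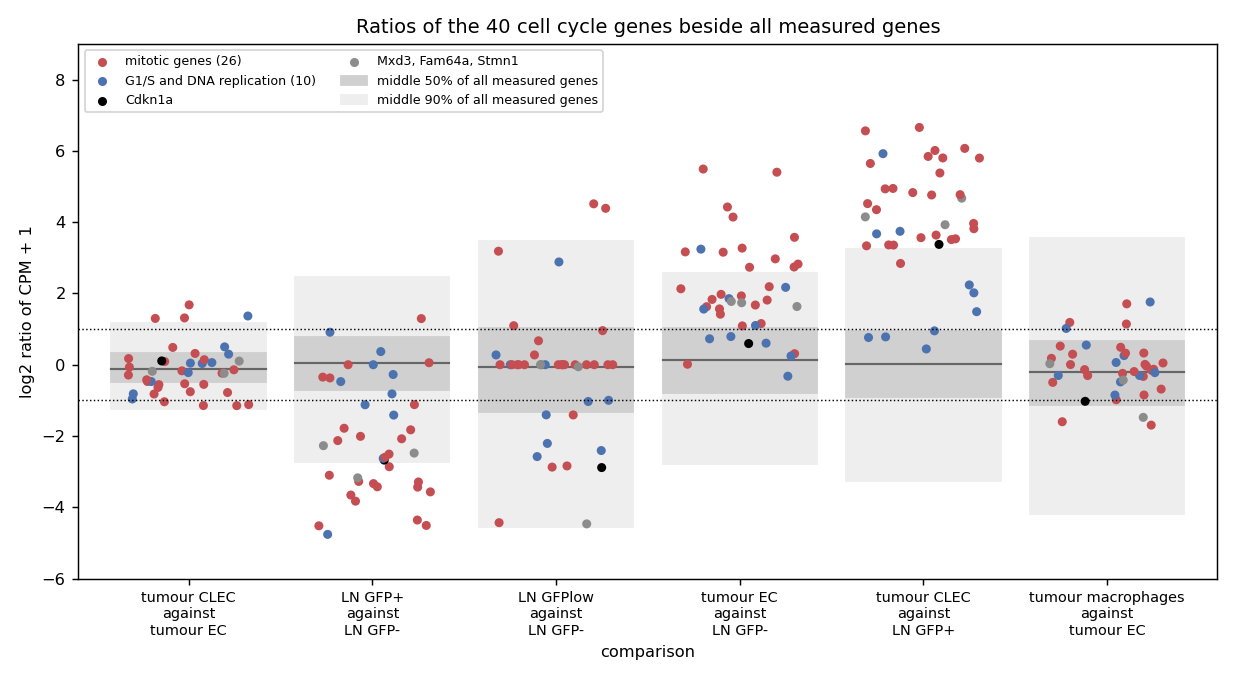
log2 ratio of CPM + 1 of each of the 40 genes (points, coloured by role) in the 6 comparisons, with the middle 50% and 90% of all measured genes as grey bands and their median as a line; dotted lines mark 2-fold. Between tumour gates most genes lie under 2-fold, and in tumour CLEC against tumour EC Cenpf, Hist1h1b, Mki67 and Bub1 lie above the 90% band. The medians of the 40 are 3.95 in tumour CLEC against LN GFP+ cells and 1.82 in tumour EC against LN GFP- cells, beside 0.03 and 0.14 for all measured genes. The low points of LN GFP+ against LN GFP- cells include the mitotic genes of 1 LN GFP- cell.

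Within the lymph node, few of the 40 genes were measured, and the sums turned on 1 cell. In LN GFP+ against LN GFP- cells, 13 of 40 were measured, 0 were higher, where 20.1% of all measured genes were, and 8 were lower, where 19.2% were. These 8 were Cenpa, Cdkn1a, Stmn1, Mxd3, Ccna2, Ckap2, Mcm2 and Mcm5. The median of the 40 was -2.38, beside 0.04 over all measured genes. It was -4.69 over the 38 genes above the floor without a pseudocount, with the 10 at 0 in LN GFP+ cells put at the floor. Without the 1 LN GFP- cell of the mitotic programme, 2 genes were higher and 5 lower, and the median was 0, where 20.5% of all measured genes were higher and 19.1% lower. How many of the 40 were still measured is not given here, so the counts of 2 and 5 cannot be read against those shares. Of the 8, Ccna2 then turned to 1.21 and Ckap2 to 1.12, Mxd3 stood at -0.07, and Cenpa (-3.85), Mcm2 (-1.29), Mcm5 (-1.11) and Stmn1 (-1.58) stayed lower. Mcm5 was higher in LN GFP+ cells of pool B (4.44). Cdkn1a (18.5 CPM in LN GFP+ and 123.7 CPM in LN GFP- cells, log2 -2.68) did not rest on that cell, with -2.68 without it, -1.63 in pool A, -5.76 in pool B and -1.61 in pool C. Stmn1 (11.4 CPM in LN GFP+ and 68.3 CPM in LN GFP- cells, log2 -2.48) varied, at -3.74 in pool A, 0.61 in pool B and -4.78 in pool C. Mcm2 (10.4 CPM in LN GFP+ and 29.5 CPM in LN GFP- cells, log2 -1.41) was found in 2 of 98 and 8 of 74 cells.

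LN GFPlow and LN GFP- cells shared pools B and C, with 29 and 34 cells. There 12 of the 40 genes were measured, 3 were higher, where 25.3% of all measured genes were, and 8 were lower, where 30.5% were. With the mean of per-cell CPM the counts were 3 and 4. The median of the 40 was 0, beside -0.05 over all measured genes, and -1.05 over the 21 genes above the floor without a pseudocount and with zeros put at the floor. Cdkn1a had 20.05 CPM in LN GFPlow and 154.6 CPM in LN GFP- cells (log2 -2.89), and was lower in both pools (-2.01 in pool B and -5.93 in pool C). Pcna had 56.8 CPM in LN GFPlow and 117.2 CPM in LN GFP- cells (log2 -1.03), Mcm6 8.96 and 58.5 CPM (log2 -2.58), and Tyms 12.6 and 35.02 CPM (log2 -1.41). Tyms turned to 0.10 without pool C. Pcna was under 2-fold with a pseudocount of 5 CPM (-0.98), the mean of per-cell CPM (-0.70), thinned cells (-0.70) and without pool B (-0.47). The 3 higher genes were Ckap2 (9.90 CPM in LN GFPlow and 0.20 CPM in LN GFP- cells, log2 3.18), Mcm3 and Prc1. Mcm3 had 6.38 CPM in LN GFPlow and 0 reads in LN GFP- cells, 53.5-fold higher at the floor, which covers the counting of reads only. Prc1 had 35 reads in LN GFPlow and 1 read in LN GFP- cells, a ratio of 30.7 with a counting interval from 5.16 to 1247. The LN GFP- cells enter this comparison, the LN GFP+ one and the tumour EC one, so these ratios share cells.

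Other genes of the pathway were followed in 5 lists, and their levels tell where cells with the mitotic programme differed from the others of the same gate. In tumour macrophages, tumour CLEC and tumour EC, 23.7%, 15.5% and 20.9% of all measured genes were at least 2-fold higher in cells with the programme, and 20.9%, 17.7% and 29.4% were lower. The genes of the lists were counted here without the limits for a measured gene, unlike these shares. Of the 7 genes of the MuvB complex and its partners, 3, 5 and 4 were at least 2-fold higher in such cells of tumour macrophages, tumour CLEC and tumour EC, and 0 were lower. Foxm1, which switches on mitotic genes, had 135.5, 59.1 and 48.8 CPM in cells with the programme, against 2.5, 2.9 and 0.0 CPM in the other cells. Mybl2, B-Myb, had 74.6, 47.8 and 64.8 CPM, against 1.8, 0.4 and 7.4 CPM. Of the 10 RB and E2F genes, 5, 6 and 4 were higher and 0, 1 and 3 lower. E2f8, a repressor of the E2F family, had 53.6, 27.05 and 71.2 CPM in cells with the programme, against 6.1, 1.4 and 6.7 CPM. Of the 6 CDK inhibitor genes, 3, 3 and 2 were higher and 0, 1 and 1 lower. The inhibitor genes Cdkn2c (72.7, 71.7 and 38.4 CPM, against 15.5, 3.4 and 3.3 CPM) and Cdkn2d (108.98, 87.2 and 188.4 CPM, against 24.2, 5.8 and 19.4 CPM) were also higher there in all 3 gates. Of the 7 G1 cyclin and kinase genes, 3, 2 and 1 were higher and 1, 1 and 1 lower. Cdk4, a G1 kinase, had 428.7, 354.7 and 353.9 CPM, against 81.96, 192.8 and 252.1 CPM, and reached 2-fold only in tumour macrophages. Of the 10 p53 targets, 0, 1 and 1 were higher and 6, 3 and 2 lower. Btg2, an anti-proliferative gene, had 126.9, 67.1 and 31.6 CPM in cells with the programme, against 403.5, 79.99 and 135.5 CPM in the other cells.

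Between gates the lists are given by their counts, beside the shares of all measured genes given above. In tumour CLEC against tumour EC, 1 of 7 G1 cyclin and kinase genes, 0 of 4 measured inhibitor genes, 0 of 8 RB and E2F genes, 1 of 7 MuvB genes and 0 of 9 p53 targets were higher, and 0, 0, 0, 1 and 2 were lower. Of these Ccng1, cyclin G1, passed the limits for naming a gene, 20 CPM with reads in 10% of the cells of the higher gate (25.3 CPM in tumour CLEC and 55.9 CPM in tumour EC, log2 -1.11). In tumour EC against LN GFP- cells, 2 of 6 measured G1 genes, 1 of 4 inhibitor genes, 1 of 7 RB and E2F genes, 3 of 7 MuvB genes and 6 of 9 p53 targets were higher, and 1, 3, 2, 0 and 2 were lower. In tumour CLEC against LN GFP+ cells, 3 of 7, 0 of 5, 4 of 8, 1 of 5 and 1 of 8 were higher, in the same order of lists, and 1, 1, 1, 2 and 2 were lower. In LN GFP+ against LN GFP- cells, 0 of 5, 2 of 5, 0 of 5, 1 of 4 and 3 of 9 were higher, and 1, 2, 3, 0 and 2 were lower. In LN GFPlow against LN GFP- cells, 0 of 5, 2 of 4, 1 of 5, 0 of 4 and 3 of 8 were higher, and 2, 2, 2, 2 and 2 were lower. In tumour macrophages against tumour EC, 1 of 7, 1 of 3, 3 of 10, 2 of 7 and 1 of 9 were higher, and 3, 0, 1, 1 and 3 were lower. The D-type cyclins differed by type there. Ccnd2 had 104.4 CPM in tumour macrophages and 0 reads in tumour EC, while Ccnd3 had 45.9 and 270.1 CPM (log2 -2.53) and Ccnd1 30.6 and 110.7 CPM (log2 -1.82). In LN GFP+ against LN GFP- cells, Cdkn2b, p15, had 24.5 CPM in LN GFP+ and 0 reads in LN GFP- cells, and the p53 target Phlda3 had 89.5 and 10.6 CPM (log2 2.97). Rb1 had 21.7 and 86.6 CPM (log2 -1.95), Cdkn1b, p27, 5.23 and 27.1 CPM (log2 -2.17) and Btg2 199.4 and 807.3 CPM (log2 -2.01). In tumour CLEC against LN GFP+ cells Ccnd1 had 134.3 and 369.4 CPM (log2 -1.45), against the direction of the mitotic genes.

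The cells with the mitotic programme carried the markers of their gates, except 1 tumour EC. All 14 tumour macrophages had at least 3 of 11 macrophage markers, with 22293 to 50160 CPM over the list. All 24 tumour CLEC had at least 3 of 12 pan-endothelial markers, with 2410 to 12185 CPM, and at most 60.95 CPM over the macrophage list, 9 of whose 11 genes were at 0. Of the 7 tumour EC, 6 had at least 3 of the pan-endothelial markers and 1 had 0 CPM. Over all 7 cells the median of the list was 8684 CPM and the highest value 13478 CPM. Of the 7 tumour EC, 1 had reads of the fibroblast or pericyte markers at equal depth. The highest sum over those 7 markers was 271.3 CPM, with 5 of the 7 genes at 0, while all 75 other tumour EC were at 0. The part in the tumour EC ratios of cells without endothelial markers, or with fibroblast or pericyte markers, was not tested. The macrophage list reached at most 230.9 CPM in the 7 tumour EC, with 8 of 11 genes at 0. At least 1 haematopoietic marker was found in 5 of these 7 cells and at least 3 in 0, with at most 557.9 CPM over the list. The 1 LN GFP- cell had 6973 CPM over the pan-endothelial list and 134.3 CPM over the lymphatic list, with 5 of its 7 genes at 0. All 11 macrophage and all 7 haematopoietic markers were at 0 in that cell. Of the 7 blood cells, 0 had the mitotic programme, 2 were called S and 1 G2/M, and Mki67, Top2a, Cdk1 and Cdkn1a had 0 reads in them.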

How the data were processed

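Per the labels' protocols, cDNA of single mouse cells was amplified for 20 cycles by a modified form of SMART-seq2, in which no molecular identifiers are named, with Nextera XT for the libraries. The authors deposited 2 tables of raw read counts per gene. Per the submitters' processing notes the build was mm10 and the tools were Subread 1.4.6-p2, STAR 2.4.1b and FastQC 0.11.4. Strand use and annotation are not given in the sources used here. PCR reads are not independent molecules, so exact Poisson and Clopper-Pearson 95% intervals cover counting error only.

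Each table has 51826 rows, of which 92 were summed into a row with the same symbol. Cells needed 50000 reads in genes, 1000 genes and a mitochondrial share of 25% or less. Wells were sorted singly, and doublets were not called. For shares, cells were thinned to 100000 reads (seed 7), and 11 shallower cells were left out. Phase scores were from scanpy 1.11.5 over all kept cells. Ratios used a pseudocount of 1 CPM on summed counts. edgeR 4.0.16 was used only for scaling factors in one alternative. The ratios, the thinning and the share intervals were tested on simulated data. Simulated folds were checked only for genes with 20 CPM or more in the reference gate. Ratios of genes below that level, or with most reads in 1 cell, were not covered. Genes were named if on a list of 15 or if 2-fold apart where the higher gate had 20 CPM and reads in 10% of its cells or more. Genes described outside that rule were chosen after their values were seen. The 40 genes, the lists and the comparisons were chosen with earlier results of these data known. Gene overlaps are from GENCODE vM21.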

Additional observations from a re-analysis of the deposited data

How the results depend on the processing

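Of the alternatives tried for counts, medians and shares, 61 moved the value, and 40 took a named gene under 2-fold. Counts and shares have no sign, so a reversal could be recorded for medians only, and 0 were recorded. The median of tumour macrophages against tumour EC, which went from -0.13 to 0.04 with TMM-adjusted totals, was not recorded as a reversal. Nor was the fall to 0 of the median of -2.38 in LN GFP+ against LN GFP- cells. No paired analysis was possible because no result comes from a test and replicate numbers only name cells. The LN gates share pools A, B or C, and the report gives ratios within them. The count of higher and lower genes in tumour CLEC against tumour EC was 4 and 3, and 2 and 1 with a pseudocount of 5 CPM. The lower count was 1 with the mean of per-cell CPM and 1 with TMM-adjusted totals, 5 without KM3 and 8 without KM4, and the counts were 1 and 7 with mitotic cells left out. In LN GFP+ against LN GFP- cells the 0 higher and 8 lower genes and the median of -2.38 became 5 lower and -1.11 with a pseudocount of 5 CPM, 1 and 29 with no filter on low values and 1 and 4 with thinned cells. They became 1 and 4 with a median of 0 without pool A, and 2 and 5 with a median of 0 with mitotic cells left out, which removes the same 1 LN GFP- cell as an alternative chosen after seeing the data. In LN GFPlow against LN GFP- cells 3 higher and 8 lower became 4 lower with the mean of per-cell CPM or thinned cells, 5 higher with no filter, 1 higher with a stricter cell filter (200000 reads and 2000 genes), 8 and 5 without pool B and 1 higher without pool C. The median of tumour EC against LN GFP- cells, 1.82, was 1.47 with a pseudocount of 5 CPM, 4.95 without pool A, 1.29 without pool B and 4.55 without the 1 mitotic LN GFP- cell, and 13 genes were higher with mitotic cells left out. For tumour CLEC against LN GFP+ cells the median of 3.95 was 2.60 with a pseudocount of 5 CPM, and 1.01 with 8 genes higher when mitotic cells were left out. For tumour macrophages against tumour EC the 5 higher genes became 3 with a pseudocount of 5 CPM, 1 with the mean of per-cell CPM and 1 with thinned cells, and 2 higher and 7 lower with mitotic cells left out. Leaving out mitotic cells reversed Bub1b (0.52), Cenpf (-1.16) and Ckap2 (1.5006) in tumour CLEC against tumour EC, Bub1b (-0.62) and Cenpa (-0.49) in tumour EC against LN GFP- cells, Ccna2 (-0.20) and Mki67 (-0.098) in tumour CLEC against LN GFP+ cells, and Rrm2 (-1.37), Mki67 (-0.037) and Ckap2 (1.66) in tumour macrophages against tumour EC. Tyms in LN GFPlow against LN GFP- cells turned to 0.10 without pool C. TMM-adjusted totals moved the median of all measured genes from -0.12 to 0.02 in tumour CLEC against tumour EC. Where cells were left out, the fewer cells are the change itself, and in the other cases the cause was not tested. The limits for a measured gene were also applied to the remaining cells, so these counts can lose genes whose ratio stayed at 2-fold.

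S calls from the listed genes alone were 39.5% in tumour macrophages, 36.5% in tumour CLEC, 34.1% in tumour EC, 16.7% in LN GFPlow and 26.8% in LN GFP- cells. Scored within each gate, S calls were 33.7% in LN GFP+, 37.2% in LN GFPlow and 26.8% in LN GFP- cells, and G2/M calls 20.0% in LN GFP+ and 20.5% in LN GFPlow cells, since such scores are centred on the gate itself. G2/M calls were 0% in LN GFP+ and LN GFPlow cells without thinning and with a score limit of 0.2, 0% in LN GFP+ cells under the stricter cell filter, and 1.27% in LN GFPlow cells thinned to 50000 reads. S calls were 0% in LN GFPlow cells with the limit of 0.2, and Mki67 or Top2a reads 0% in LN GFP+ cells under the stricter filter. Shares with the mitotic programme stayed within their intervals in all 6 gates and under every alternative run, from 14.8% to 18.5% in tumour macrophages, 11.4% to 16.8% in tumour CLEC and 7.41% to 14.6% in tumour EC. A count of 0 allows a share of up to 3.16% of 95 LN GFP+ cells and 3.85% of 78 LN GFPlow cells.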
